A study of Homo sapiens with 82 samples.

Results

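Rosiglitazone and GW3965 were compared directly with each other after 24 h of treatment, without passing through the vehicle control. The comparison rested on the 4 rosiglitazone and the 4 GW3965 RNA-seq libraries of the 24 h count table, 8 of the 82 samples of the series, chosen by their labels alone. All groups were HT29 cells, an established line from a human colorectal adenocarcinoma, given 10 μM of a drug dissolved in DMSO, or DMSO itself, in medium whose serum had been treated with charcoal and dextran. The 24 h table also held 4 DMSO libraries and 4 libraries of T0901317, another LXR agonist, and a 48 h table held the same 4 groups. HT29 is a single line, so what follows describes this line, and nothing in the labels says whether the replicates came from separate cultures. The p-values therefore measure the spread between these libraries, which may be technical.

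GW3965 activates the liver X receptors LXRA (gene NR1H3) and LXRB (NR1H2), sensors of oxidised cholesterol that raise cholesterol efflux and, through SREBF1, fatty acid synthesis. Rosiglitazone activates PPARG, a fatty acid sensor that governs fat storage in adipocytes and is abundant in colonic epithelium. Both receptors pair with a retinoid X receptor (RXR) and bind direct repeats of the same half-site, spaced by 1 base for PPARG (DR1) and by 4 bases for LXR (DR4). A direct contrast of the agonists therefore asks which genes tell one nuclear receptor response from the other at the early time point.

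Total counts ran from 33354968 to 40617171 in the rosiglitazone libraries and from 36791401 to 51332656 in the GW3965 libraries. GW3965 replicate 1 stood apart from its group. The chi-square per gene between it and the other GW3965 libraries was 31.8 to 73.2, against 5.30 to 11.5 among the other GW3965 pairs and 4.48 to 14.1 among the rosiglitazone pairs. Counts are therefore given with and without that library, and no pair of libraries differed by as little as sampling noise. All 10 epithelial markers were detected, with KRT8 at 9809 CPM (counts scaled to the TMM-adjusted library size) or more in each of the 8 libraries and EPCAM at 310 CPM or more. Their summed level was 20488 to 21811 CPM with rosiglitazone and 19693 to 19979 CPM with GW3965. Markers of stromal, immune and endothelial cells summed to 15.4 to 19.6 CPM with rosiglitazone and 19.0 to 22.5 CPM with GW3965. Some were present in all 8 libraries, with CD68 at 8.85 to 12.7 CPM and COL1A1 at 2.42 to 7.28 CPM. CD14 was at 1.38 to 2.20 CPM and LUM at 0.931 to 1.92 CPM. COL1A2, CD3E, MS4A1, CDH5 and KDR were at 0 in all 8 libraries. Of these markers, 0 of the 6 tested passed the edgeR test described below (4 had an unadjusted p under 0.05). Over all 21781 genes tested, 6416 had an unadjusted p under 0.05. The part of these markers in any result was not tested.

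With rosiglitazone, 7 of 24 genes of fatty acid binding, lipid droplets and lipases were higher than with GW3965, ANGPTL4, FABP1 and LIPE among them. With GW3965, 5 of 12 LXR target genes such as ABCA1, 4 of 18 genes of fatty acid synthesis such as SCD and 8 of 19 genes of the integrated stress response such as ASNS were higher than with rosiglitazone. Of 21781 genes tested, 116 were higher with rosiglitazone (0.533%) and 332 were lower (1.52%), 2.06% in all, at a Benjamini-Hochberg adjusted p under 0.01 in edgeR's quasi-likelihood test and a change of at least 2-fold. A gene that passed both limits is called higher or lower below, always for rosiglitazone relative to GW3965, and log2 differences carry that sign and their standard error (SE). Without GW3965 replicate 1 the counts were 97 and 356. At least 4-fold differences were found for 23 higher and 68 lower genes, and the median size was 1.25 among the higher and 1.45 among the lower genes on the log2 scale. The median over all genes tested was -0.0087. All 4 libraries of one drug lay outside the range of the other in 114 of the higher and 326 of the lower genes, and in 20.8% of all genes tested. At the same adjusted p and any fold, 4.6% of genes were higher and 6.09% lower.

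**Figure D1:**
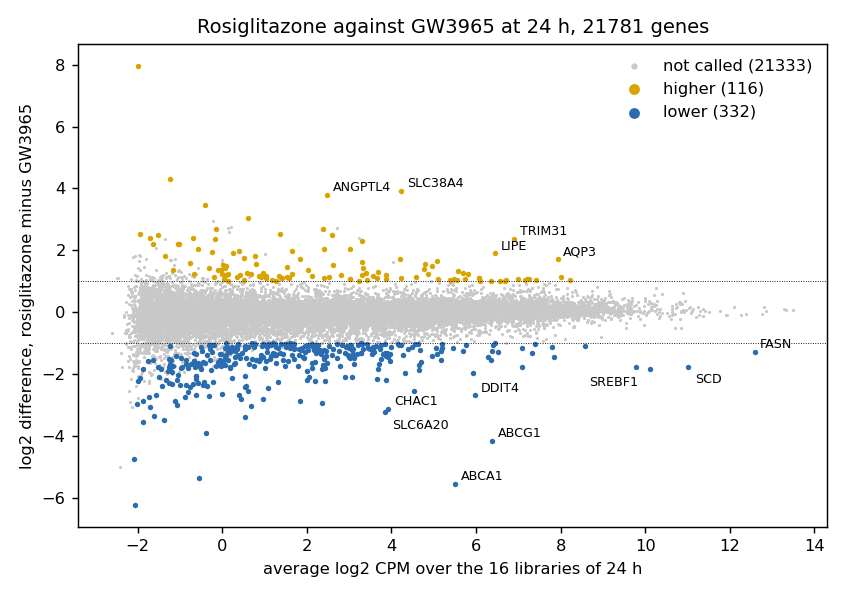
Log2 difference between rosiglitazone and GW3965 at 24 h (y axis) against the average log2 CPM over the 16 libraries of 24 h (x axis), with 1 point per tested gene. Orange points are the 116 genes called higher, blue points the 332 called lower, grey points all others, and dotted lines mark 2-fold. The abundant genes furthest below 0 include ABCG1, SREBF1 and SCD, and the orange point near 8 is FABP4, whose fitted value has no meaning as a size because it had no count with GW3965.

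None of the receptor genes tested was called. NR1H2, PPARA and RXRA had log2 differences of 0.05 ± 0.06 (SE), 0.0002 ± 0.06 and 0.04 ± 0.12, and none passed the test. NR1H3 was at 126 ± 5.89 CPM (SD, n = 4) with rosiglitazone and 154 ± 13.1 CPM with GW3965, a difference of -0.29 that did not pass (adjusted p = 0.0135). Without GW3965 replicate 1 the NR1H3 difference was -0.33, which passed the adjusted p of the same edgeR test (0.00365) but not 2-fold. RXRB differed by 0.22 (adjusted p = 0.0227), and RXRG had no count in any of the 8 libraries. PPARG RNA was at 30.4, 32.3, 30.6 and 35.2 CPM with rosiglitazone and at 45.0, 41.9, 41.3 and 40.5 CPM with GW3965. The groups did not overlap, and the difference of -0.39 ± 0.07 passed the adjusted p (4.51e-04) but not 2-fold. PPARD, the receptor of the same family expressed in most tissues, went the other way at 65.5 ± 6.76 against 39.8 ± 4.81 CPM (log2 difference 0.72 ± 0.09, adjusted p = 5.39e-06). So 0 of the 7 receptor genes tested were called by edgeR, and 0 by DESeq2, while 4 had an unadjusted p under 0.05. The same was true of 6416 of all 21781 genes tested. The DMSO libraries held 45.3 ± 2.47 CPM of PPARG and 34.2 ± 2.25 CPM of PPARD.

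The cholesterol exporter ABCA1 had the largest decrease with rosiglitazone relative to GW3965 among the genes named by rule. It stood at 2.21, 2.29, 2.82 and 2.30 CPM in the rosiglitazone libraries and at 106, 118, 123 and 106 CPM in the GW3965 libraries. DMSO libraries held 4.62 ± 0.281 CPM, so the rosiglitazone group lay below the vehicle and the GW3965 group far above it. The log2 difference between the drugs was -5.56 ± 0.10 (adjusted p = 3.70e-18). ABCG1, which passes cholesterol to high-density lipoprotein, stood at 9.80, 10.4, 9.26 and 9.82 CPM against 158, 186, 187 and 176 CPM (log2 difference -4.17 ± 0.08, adjusted p = 6.13e-18). Here the DMSO level was 6.93 ± 0.639 CPM, below that of either drug.

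SREBF1, the transcription factor that drives fatty acid synthesis, had 530, 491, 560 and 482 CPM with rosiglitazone and 1274, 1858, 2203 and 2132 CPM with GW3965. All GW3965 libraries were above all rosiglitazone libraries, with replicate 1 the lowest of its group, and the difference was -1.86 ± 0.13 (adjusted p = 5.61e-09), or -1.99 without that replicate. MYLIP, the ubiquitin ligase that marks the LDL receptor for degradation, was at 10.4 ± 1.21 against 22.7 ± 0.718 CPM (-1.12 ± 0.08, adjusted p = 3.21e-09). The phosphodiesterase-like SMPDL3A, a low-abundance gene, was also lower (-1.54 ± 0.20, adjusted p = 1.02e-05). LPCAT3 and PLTP, which remodel and transfer phospholipids, passed the adjusted p at -0.37 ± 0.05 and -0.74 ± 0.16 without reaching 2-fold. Of the 12 LXR target genes tested, 5 were thus lower and 0 higher, with a median of -0.71. ABCG5, ABCG8 and CETP were too low to be tested.

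Genes of fatty acid synthesis that passed were lower with rosiglitazone, apart from the elongase ELOVL1 (0.51 ± 0.05), which was higher at less than 2-fold. SCD, the desaturase that makes oleate, was at 999, 1066, 1062 and 982 CPM with rosiglitazone and at 3373, 3558, 3598 and 3520 CPM with GW3965. Its groups were far apart and each was narrow, and the difference was -1.77 ± 0.05 (adjusted p = 1.25e-15). Fatty acid synthase, FASN, was the most abundant member shown and the most scattered, with 4278, 3228, 4528 and 3793 CPM against 5697, 9463, 12085 and 11493 CPM. The lowest of the GW3965 values was again replicate 1, and the difference of -1.29 ± 0.17 (adjusted p = 1.37e-05) became -1.47 without it. Acetyl-CoA synthetase ACSS2 (-1.71 ± 0.11, adjusted p = 9.79e-10) and the phosphatidate phosphatase LPIN1 (-1.62 ± 0.06, adjusted p = 7.33e-13) were lower too. Acetyl-CoA carboxylase ACACA, at -0.81 ± 0.05, passed the adjusted p alone. Of 18 members tested, 4 were lower and 0 higher, with a median of -0.30.

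The relation to vehicle differed among these genes. The DMSO libraries were shared by all comparisons with vehicle, so the values are set side by side only. SCD was 0.24 above DMSO with rosiglitazone and 2.01 above it with GW3965 on the log2 scale, and FASN was at 0.27, which did not pass the test (adjusted p = 0.287), and 1.56. ACSS2 was -0.55 from DMSO with rosiglitazone and 1.16 with GW3965, and LPIN1 -0.56 and 1.06. Thus DMSO lay between the drugs for ACSS2 and LPIN1, and below both for SCD.

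Genes of cholesterol synthesis and uptake moved less. Of the 24 members tested, 1 was called, in the lower direction, and 9 were lower at any fold. Lanosterol synthase LSS (-0.88 ± 0.10), the sterol sensor INSIG1 (-0.83 ± 0.05) and the sterol reductase TM7SF2 (-0.61 ± 0.10) were among those 9. The median of the list was -0.21.

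**Figure D2:**
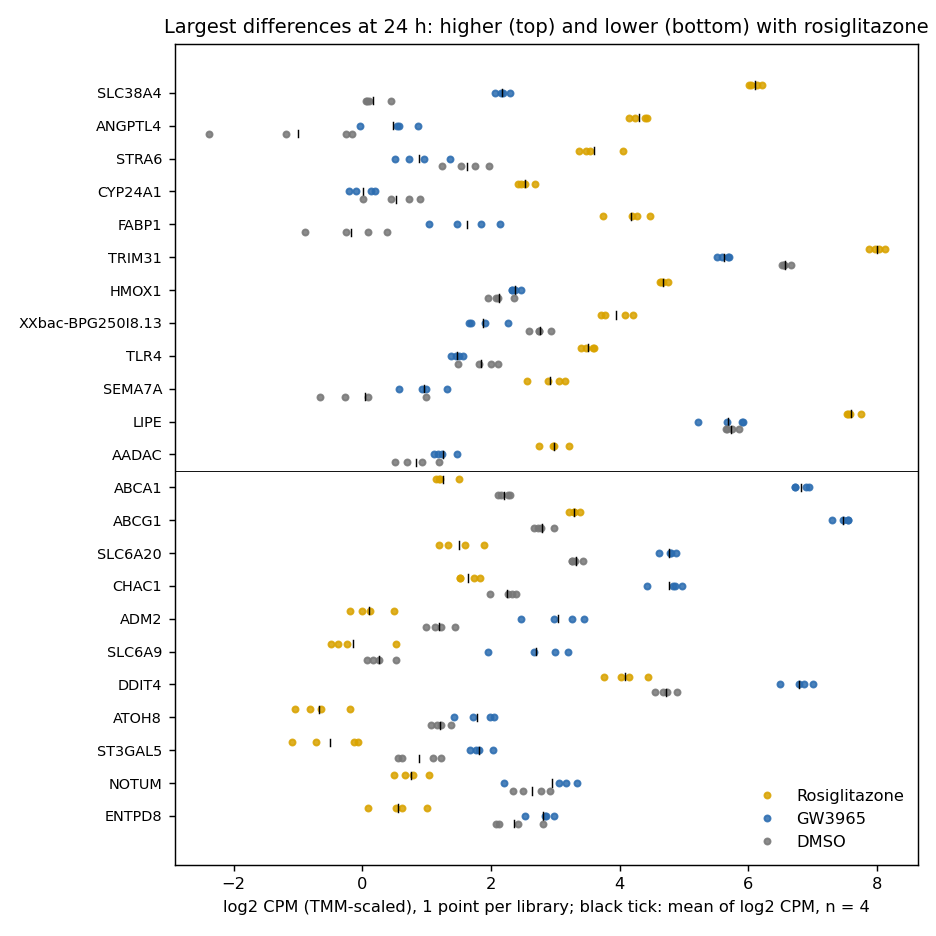
Log2 CPM in each rosiglitazone (orange), GW3965 (blue) and DMSO (grey) library at 24 h for the 12 largest increases and 11 of the 12 largest decreases, with 1 point per library and a black tick at the mean of each group of 4. The separation of orange from blue was required by the rule that chose the genes. The grey points lie between the drugs for SLC6A20 and DDIT4, and beside or left of the blue points for SLC38A4, HMOX1 and LIPE.

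Among called genes with a mean log2 CPM of 1 or more, the largest increase with rosiglitazone was in SLC38A4, a sodium-coupled transporter of neutral amino acids. Its RNA was at 65.5, 74.0, 70.1 and 64.6 CPM with rosiglitazone and at 4.18, 4.91, 4.43 and 4.54 CPM with GW3965, a 15.2-fold difference (log2 difference 3.93 ± 0.08, adjusted p = 6.13e-18). The 2 groups were tight and far apart. GW3965 itself was above DMSO, which held 1.13 ± 0.158 CPM, whereas T0901317 held 1.11 ± 0.0746 CPM.

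ANGPTL4, a secreted inhibitor of lipoprotein lipase and a classical PPAR target, was at 21.1, 17.7, 21.4 and 18.8 CPM with rosiglitazone and 0.969, 1.45, 1.81 and 1.48 CPM with GW3965 (log2 difference 3.80 ± 0.24, adjusted p = 8.89e-10). FABP1, the liver type of fatty acid binding protein, was at 13.4, 19.2, 22.2 and 18.2 CPM against 2.78, 2.05, 4.38 and 3.60 CPM (2.50 ± 0.24, adjusted p = 2.27e-07). All rosiglitazone libraries were above all GW3965 libraries in both genes. FABP4, the adipocyte form and a widely used PPARG marker, had 17 to 39 counts in each rosiglitazone library, 117 in all, and 0 counts in the GW3965, DMSO and T0901317 libraries. Against a floor of 3 counts over the GW3965 group it was at least 47.3-fold higher. At 48 h FABP4 was at 0.0947 ± 0.0701 CPM with rosiglitazone, and still 0 with GW3965.

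Lipid droplet coats and a lipase were higher too. Hormone-sensitive lipase, LIPE, was at 191, 187, 215 and 184 CPM with rosiglitazone and at 37.2, 51.0, 59.9 and 60.3 CPM with GW3965, the latter around the DMSO level of 53.0 ± 3.30 CPM (log2 difference 1.90 ± 0.12, adjusted p = 1.13e-09). The perilipins PLIN1 (1.75 ± 0.21, adjusted p = 4.22e-06), PLIN2 (1.20 ± 0.09, adjusted p = 1.60e-08) and PLIN4 (1.34 ± 0.14, adjusted p = 1.13e-06) were all higher with rosiglitazone. PLIN4 had 108, 99.8, 118 and 91.2 CPM against 28.0, 41.6, 47.5 and 48.0 CPM, with no overlap. Of the 24 members of this list tested, 7 were higher and 0 lower, and the median was 0.21. CIDEA, FITM1, LPL and ADIPOQ were too low to be tested.

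In fatty acid oxidation and ketogenesis, PDK4, the kinase that shuts off pyruvate dehydrogenase, was at 24.5, 30.3, 28.5 and 27.6 CPM with rosiglitazone and at 12.2, 12.3, 13.3 and 13.4 CPM with GW3965 (log2 difference 1.11 ± 0.09, adjusted p = 4.00e-08). The groups did not overlap. In the same list, ACSL1, which activates long-chain fatty acids, was lower, at 63.5 ± 0.784 against 132 ± 5.51 CPM (-1.06 ± 0.05, adjusted p = 9.71e-12). Of 30 members tested, 2 were higher and 1 lower, and at any fold 9 were higher and 3 lower. EHHADH, a peroxisomal oxidation enzyme, was at 0.86 ± 0.13 and CPT1A, the mitochondrial gatekeeper, at -0.31 ± 0.06.

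For several of these genes the GW3965 libraries were not at the vehicle level. PDK4 was 2.58 above DMSO with rosiglitazone and 1.47 above it with GW3965 on the log2 scale. PLIN2 was 2.79 and 1.58 above DMSO, and SLC38A4 5.92 and 1.99. T0901317 differed from DMSO by 0.26 for PDK4 and -0.02 for SLC38A4, and neither passed the test. LIPE, by contrast, was 1.87 above DMSO with rosiglitazone and -0.02 from it with GW3965. The difference between the 2 drugs is thus smaller than the difference between rosiglitazone and vehicle for PDK4, PLIN2 and SLC38A4.

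**Figure D3:**
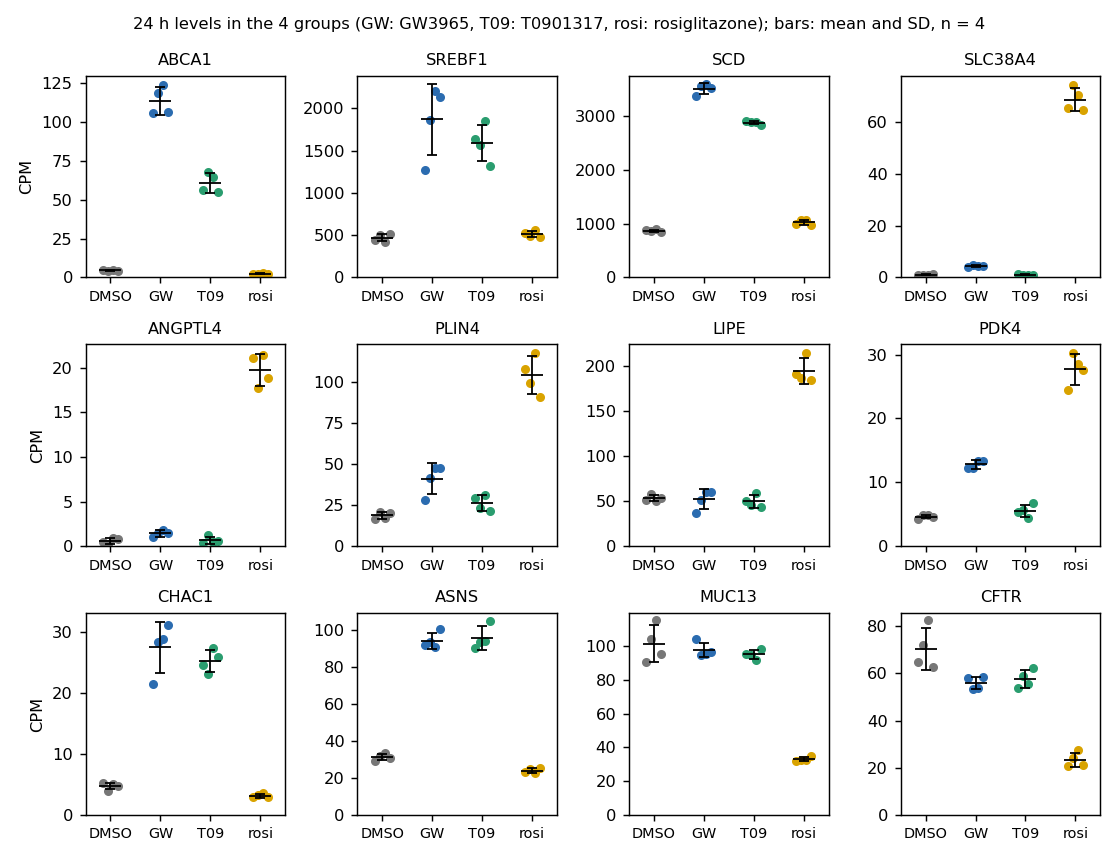
CPM in each library of 24 h for 12 named genes in the DMSO (grey), GW3965 (blue, GW), T0901317 (green, T09) and rosiglitazone (orange, rosi) groups, with black bars for the mean and SD of 4 libraries. ABCA1, SREBF1 and SCD are high with both LXR agonists. SLC38A4 and PDK4 are highest with rosiglitazone, with GW3965 above the DMSO and T0901317 libraries, and CHAC1 and ASNS are high with both LXR agonists and lowest with rosiglitazone.

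Direct repeats of the half-site were looked for in RefSeq promoter windows of build GRCh38.p14, from 250 bases before to 50 bases after each annotated start, with some genes having several starts. The motifs were AGGTCANAGGTCA for DR1 and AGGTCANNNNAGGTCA for DR4, on both strands and with up to 2 mismatches. Windows were found for 256 of the 448 called genes by symbol. A DR1 match was present in 4 of 93 windows of genes called higher (4.3%), in 6 of 293 windows of genes called lower (2.05%) and in 2.37% of the windows of all genes tested. A DR4 match was present in 0 of the 93, in 5 of the 293 (1.71%) and in 1.74% of the windows of all genes tested. Over all 35116 windows the shares were 2.97% and 2.34%. Single genes were looked up for 59 of the genes named by rule, and 47 of them had a window. The receptor list, INHBE, G0S2, BTN3A3 and NR0B2 were not looked up. Among the 47, STRA6, FABP1 and ACSL1 held a DR1 match and ABCA1 and CFTR a DR4 match, each with 2 mismatches. Those of ABCA1, FABP1, STRA6 and ACSL1 are shown as examples, and that of CFTR is not shown. Whether the shares differ between the sets was not tested. They run 5′ to 3′ on the strand of the gene, with the match, which reads as the reverse complement of the motif, in capitals.
ABCA1 (DR4, chr9:104928189-104928244, minus strand, position -69 from the start): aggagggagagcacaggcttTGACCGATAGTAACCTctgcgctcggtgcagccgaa
FABP1 (DR1, chr2:88128098-88128150, minus strand, position -68): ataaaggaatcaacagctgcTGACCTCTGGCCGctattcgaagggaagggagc
STRA6 (DR1, chr15:74212260-74212301, minus strand, position -22): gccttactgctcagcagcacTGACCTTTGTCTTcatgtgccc
ACSL1 (DR1, chr4:184805635-184805687, minus strand, position -114): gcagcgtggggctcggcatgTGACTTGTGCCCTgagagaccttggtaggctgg
A match is a description of letters and not a site or a cause. ACSL1, with a DR1 match, was lower with rosiglitazone than with GW3965.

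Several of the genes most increased with rosiglitazone relative to GW3965 belong to none of the lists. STRA6, the cell surface receptor for retinol binding protein, was at 10.3, 11.1, 16.5 and 11.6 CPM against 1.66, 1.42, 1.94 and 2.56 CPM (log2 difference 2.69 ± 0.19, adjusted p = 5.65e-09). HMOX1, the haem-degrading oxygenase, was at 25.6, 24.9, 24.6 and 26.8 CPM against 5.18 ± 0.252 CPM (2.30 ± 0.09, adjusted p = 3.87e-13). Both groups of HMOX1 were narrow, and DMSO, at 4.38 ± 0.541 CPM, was close to GW3965. TRIM31, an intestinal ubiquitin ligase, was at 256 ± 18.3 CPM with rosiglitazone, 49.1 ± 2.83 CPM with GW3965 and 95.0 ± 3.99 CPM in DMSO, so that the vehicle lay between the drugs (2.38 ± 0.08, adjusted p = 3.09e-14). CYP24A1, which inactivates vitamin D, the lipopolysaccharide receptor TLR4, the membrane-anchored semaphorin SEMA7A and the esterase AADAC had differences of 2.51, 2.04, 1.96 and 1.73. XXbac-BPG250I8.13, listed in the counts under this identifier, differed by 2.05. Its groups stood in the same order as those of TRIM31. It was at 15.5 ± 2.60 CPM with rosiglitazone, 3.72 ± 0.774 CPM with GW3965 and 6.77 ± 0.662 CPM in DMSO. Reads it may share with an overlapping or antisense gene cannot be told apart because the strand setting of the counts is not given. It is therefore not counted as independent of TRIM31.

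Outside lipid metabolism, the list with most genes called was the integrated stress response, the programme by which ATF4 raises amino acid synthesis and transport when amino acids run short or proteins misfold. CHAC1, which degrades glutathione, was at 2.85, 3.31, 3.57 and 2.85 CPM with rosiglitazone and at 21.5, 28.4, 28.9 and 31.2 CPM with GW3965 (log2 difference -3.13 ± 0.12, adjusted p = 5.14e-13). DDIT4, an inhibitor of mTORC1, was at 13.5, 16.3, 21.6 and 17.6 CPM against 89.6, 116, 110 and 128 CPM (-2.69 ± 0.12, adjusted p = 6.28e-12). The GW3965 libraries were several times above the rosiglitazone libraries in both genes, with replicate 1 the lowest of its group.

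Asparagine synthetase, ASNS, was at 23.2, 24.6, 22.4 and 25.4 CPM with rosiglitazone against 91.9, 93.5, 91.1 and 101 CPM with GW3965 (-1.98 ± 0.06, adjusted p = 3.55e-14). The pseudokinase TRIB3 was at 63.6 ± 1.59 against 217 ± 33.9 CPM (-1.77 ± 0.09, adjusted p = 2.98e-11). The cystine transporter SLC7A11, the serine synthesis enzyme PSAT1, the transcription factor DDIT3 and the leucine sensor SESN2 were lower by 1.19 to 1.46 on the log2 scale. In all, 8 of 19 members tested were lower and 0 higher, 16 were lower at any fold, and the median was -0.86. ATF4 itself was at -0.43 ± 0.06 (adjusted p = 1.38e-05). Genes of related function outside the list were among the largest decreases, namely the glycine transporter SLC6A9 (-2.87 ± 0.25), the proline transporter SLC6A20 (-3.24 ± 0.12) and the peptide hormone ADM2 (-2.95 ± 0.21). At 48 h SLC6A20 was still lower (-3.32 ± 0.10), whereas SLC6A9 and ADM2 were higher (2.13 and 1.30). PCK2, the mitochondrial enzyme that turns oxaloacetate into phosphoenolpyruvate, was the only called gene of the 30 tested in the glycolysis and pyruvate list (-1.17 ± 0.10, adjusted p = 9.41e-08). Relative to DMSO, ASNS was -0.39 with rosiglitazone and 1.59 with GW3965, CHAC1 -0.61 and 2.53, and TRIB3 -0.47 and 1.30.

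Of 34 proliferation genes tested, 0 were called higher and 2 lower, and at any fold 11 were higher and 2 lower. The median was 0.18. The 2 lower genes, CDKN1A and CDKN1C, encode inhibitors of cyclin-dependent kinases. CDKN1A was at 7.77, 6.72, 8.20 and 7.82 CPM with rosiglitazone and at 21.9, 24.8, 21.8 and 23.4 CPM with GW3965, with 11.2 ± 1.12 CPM in DMSO (log2 difference -1.59 ± 0.08, adjusted p = 4.89e-11). CDKN1C was at 5.72, 5.57, 6.38 and 6.52 CPM against 10.5, 19.4, 24.2 and 23.7 CPM (-1.69 ± 0.19, adjusted p = 2.15e-06), with GW3965 replicate 1 nearest to the rosiglitazone values. MYC was at 247 ± 12.6 against 190 ± 18.0 CPM (0.38 ± 0.07) and E2F1 at 178 ± 4.18 against 137 ± 19.0 CPM (0.38 ± 0.09).

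In the list of MAPK feedback and AP1 genes, 0 of 26 were called by edgeR, and 0 by DESeq2. An unadjusted p under 0.05 was found for 18 of them, and for 6416 of all 21781 genes tested. At any fold 5 were higher and 7 lower, and the median was -0.07. FOS, the immediate early subunit of AP1, was at 0.76 ± 0.08, and the phosphatase DUSP4 and the growth factor EREG were at -0.97 ± 0.08 and -0.79 ± 0.07. DUSP4 lay at the 2-fold limit and was called without GW3965 replicate 1 (-1.02), without rosiglitazone replicate 1, with library size scaling without TMM (-1.01) and under both 1.5-fold limits.

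Intestinal differentiation genes were split. The mucin MUC13 was at 32.2, 32.8, 32.8 and 34.9 CPM with rosiglitazone and at 104, 95.1, 95.3 and 97.0 CPM with GW3965, close to the DMSO level of 102 ± 10.8 CPM (log2 difference -1.56 ± 0.07, adjusted p = 2.59e-12). ATOH1, which commits cells to the secretory lineage, was at 1.54, 1.57, 1.35 and 1.70 CPM against 4.18, 3.99, 3.31 and 4.56 CPM (-1.38 ± 0.13, adjusted p = 1.96e-07). LGR5, a marker of crypt stem cells, went the other way, at 7.69, 9.66, 10.1 and 10.3 CPM against 2.91, 3.22, 3.21 and 3.84 CPM (1.51 ± 0.13, adjusted p = 4.30e-08). None of these groups overlapped. Sucrase-isomaltase, SI, a low-abundance enterocyte enzyme, was lower as well (-1.67 ± 0.32, adjusted p = 9.35e-04). In all, 1 of 28 was higher and 3 lower, with 5 and 10 at any fold and a median of -0.34. SPDEF (-0.92) and TFF3 (-0.72), of goblet cells, were among the 10, and CEACAM1 (0.95) and KRT20 (0.55) among the 5. In bulk RNA, a change in the share of cells of a type and a change in RNA per cell cannot be told apart.

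Transport genes of the epithelium showed opposite changes in a pair of aquaporins. AQP3, a channel for water and glycerol, was at 503, 543, 558 and 501 CPM with rosiglitazone and at 145, 158, 172 and 166 CPM with GW3965 (log2 difference 1.72 ± 0.06, adjusted p = 3.87e-13). AQP1, the constitutive water channel, was at 4.43 ± 0.385 against 20.1 ± 2.39 CPM (-2.18 ± 0.12, adjusted p = 8.90e-11). The chloride channel CFTR was at 20.8, 24.3, 27.3 and 21.3 CPM against 58.1, 53.3, 54.0 and 58.4 CPM (-1.26 ± 0.09, adjusted p = 5.61e-09). For all 3 genes GW3965 was nearer to DMSO than rosiglitazone was, since DMSO held 148 ± 7.17 CPM of AQP3, 16.1 ± 2.30 CPM of AQP1 and 70.6 ± 8.93 CPM of CFTR. They were the only called genes of the 20 tested, and the median was -0.05.

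**Figure D4:**
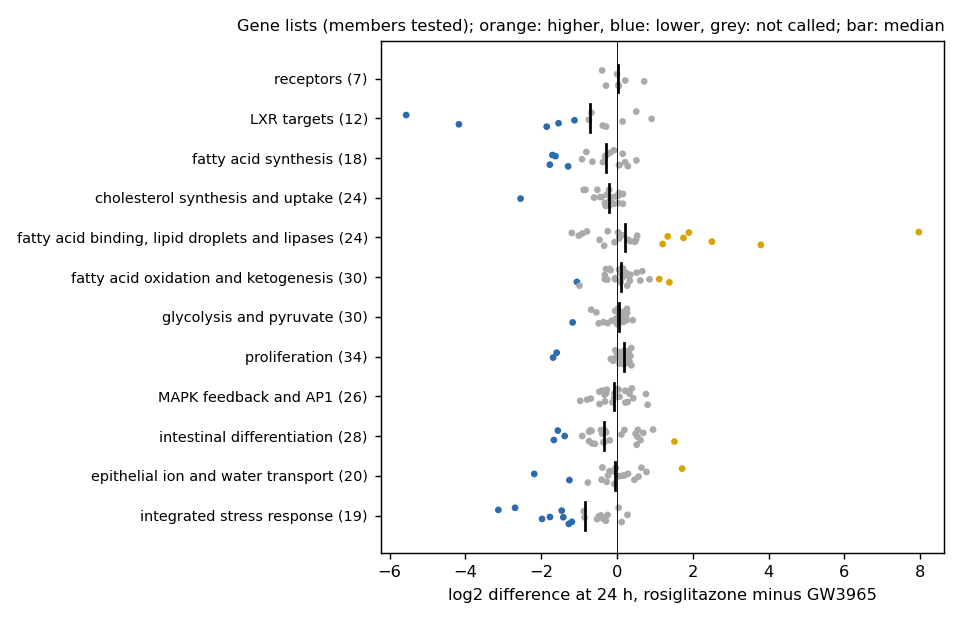
Log2 difference between rosiglitazone and GW3965 at 24 h for every tested member of 12 gene lists, with the number tested in parentheses. Orange members were called higher, blue members lower and grey members neither, and the black bar is the median of the list. Called members of the LXR target and integrated stress response lists lie left of 0, and the medians over all tested members of these lists are -0.71 and -0.86. Called members of the fatty acid binding list lie right of 0, where the point near 8 is FABP4 with no count in the GW3965 group.

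The same contrast at 48 h used other libraries and gave 1212 higher (5.39%) and 1887 lower genes (8.4%) of 22470 tested. Of the 113 genes higher at 24 h and tested at 48 h, 64 were higher again, which is 56.6% of the 24 h list and 5.73% of the 1117 genes of the 48 h list also tested at 24 h, while 47 were not called and 2 were lower. Of the 329 genes lower at 24 h, 231 were lower again, 70.2% of the 24 h list and 13% of the 1775 genes of the 48 h list also tested at 24 h, 72 were not called and 26 were higher. Without GW3965 replicate 1 of 24 h, 55 of 94 and 250 of 353 were called again in the same direction.

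Lipid genes largely kept their direction. The 48 h difference was -5.31 ± 0.12 for ABCA1, -1.68 ± 0.10 for SREBF1, -2.17 ± 0.06 for SCD, 3.15 ± 0.09 for SLC38A4, 2.94 ± 0.21 for ANGPTL4 and 1.84 ± 0.12 for PLIN4. The medians of the LXR target and fatty acid synthesis lists were -1.16 and -0.61 at 48 h. ABCG1 narrowed to -2.16 ± 0.13, a change of 2.02 ± 0.15 between the times (adjusted p = 4.14e-12), with rosiglitazone at 54.4 ± 14.8 CPM and GW3965 at 244 ± 16.9 CPM. In SEMA7A the difference grew to 6.19 ± 0.24. Tested as an interaction over all 32 RNA libraries, the contrast differed between the times for 6635 of 23140 genes (28.7%).

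Of the 8 integrated stress response genes lower at 24 h, 7 were called higher at 48 h, and SLC7A11 was at 0.92. CHAC1 was -3.13 at 24 h and 1.77 ± 0.10 at 48 h, DDIT4 was -2.69 and 1.53 ± 0.08, ASNS -1.98 and 1.22 ± 0.15, and TRIB3 -1.77 and 1.51 ± 0.11. The changes of the 8 genes between the times ranged from 2.39 for SLC7A11 to 4.91 for CHAC1, with adjusted p from 1.17e-20 for CHAC1 to 2.27e-13 for DDIT3. The vehicle level itself was different at 48 h. CHAC1 stood at 171 ± 11.3 CPM in the DMSO libraries of 48 h, 226 ± 17.4 CPM with rosiglitazone and 66.3 ± 10.5 CPM with GW3965, against 4.75 ± 0.548, 3.14 ± 0.357 and 27.5 ± 4.17 CPM at 24 h. ASNS likewise stood at 389 ± 28.2, 447 ± 91.4 and 192 ± 25.1 CPM at 48 h, against 31.3 ± 1.84, 23.9 ± 1.34 and 94.3 ± 4.42 CPM at 24 h. GW3965 was thus the highest of these 3 groups at 24 h and the lowest at 48 h. The median of the list was 1.51 at 48 h.

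Called in opposite directions at the 2 times were 28 genes, 26 of them lower at 24 h and higher at 48 h. They were examined after their values were seen. Apart from CHAC1, DDIT4, ASNS, TRIB3, DDIT3, PSAT1 and SESN2 of the list, they included the amino acid transporters SLC1A4 (-1.86 and 1.52) and SLC6A9 (-2.87 and 2.13), the cysteine synthesis enzyme CTH (-1.04 and 2.36), PCK2 (-1.17 and 1.14), the activin subunit INHBE (-2.87 and 2.61), ADM2 (-2.95 and 1.30), the growth factor VEGFA (-1.12 and 1.06) and the keratin KRT17 (-1.11 and 2.32). PIK3CG (1.23 and -1.10) and LYPD6 (1.16 and -1.22) went the other way. INHBE was under 1 CPM in every library of 24 h.

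For other genes the contrast differed between the times, tested as an interaction, and was larger in size at 48 h. The test concerns the signed difference and not its size, and G0S2, NR0B2 and EREG changed sign. G0S2, an inhibitor of the lipase that opens triglyceride stores, was at 0.771 ± 0.237 against 1.45 ± 0.211 CPM at 24 h and at 50.3 ± 15.7 against 2.80 ± 0.449 CPM at 48 h. The nuclear receptor NR0B2 had 3.83 ± 1.09 against 2.33 ± 0.685 CPM at 24 h, with overlapping groups, and 0.975 ± 0.377 against 6.21 ± 0.106 CPM at 48 h. ATOH1 widened from -1.38 to -4.78 ± 0.37, and the butyrophilin BTN3A3 from -0.37, which did not pass the test, to -3.80 ± 0.37. The MAPK and AP1 list had a median of 1.61 at 48 h, with EREG at 3.04 ± 0.11 against -0.79 at 24 h and a change of 3.84 ± 0.14 (adjusted p = 3.89e-20).

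**Figure D5:**
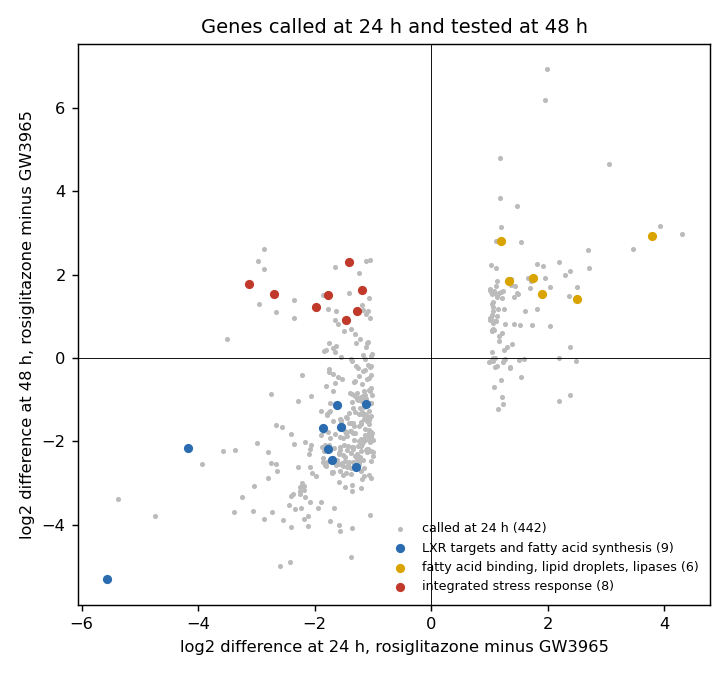
Log2 difference between rosiglitazone and GW3965 at 48 h (y axis) against that at 24 h (x axis) for the 113 genes called higher and the 329 called lower at 24 h that were tested at 48 h, with 1 point per gene. Blue points, from the LXR target and fatty acid synthesis lists, stay below 0 at both times and orange points, from the fatty acid binding list, above 0, while all 8 red points, from the integrated stress response list, lie below 0 at 24 h and above 0 at 48 h.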

How the data were processed

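The deposited values are raw counts, whole numbers of reads per Ensembl gene that the authors made from paired-end sequencing of Nextera mRNA libraries. The submitters' processing notes name TopHat, Cufflinks and hg19 without saying what each was used for, and none of the sources read gives the counting program or the strand setting, so overlapping and antisense genes may share reads. ChIP-seq files were not used here.

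With edgeR 4.0.16 (R 4.3.3), 1 model per time point covered its 16 libraries after filterByExpr and TMM scaling, which left 21781 of 51838 genes at 24 h. Rosiglitazone was contrasted with GW3965 by the quasi-likelihood F test with Benjamini-Hochberg adjustment, and genes were called at an adjusted p under 0.01 and at least 2-fold, the cutoffs of the study. The spread across replicates gave a common biological coefficient of variation of 0.0981. The SE is the log2 difference divided by the root of F. The floor of counts used for FABP4 covers counting error only. The same contrast at 48 h and its difference from 24 h, over all 32 libraries, were tested likewise. Leaving out a library, other scalings, filters and fold limits, a fit of the 8 libraries alone and DESeq2 1.42.0 were the alternatives. On simulated data the 24 h contrast recovered 100% of 100 genes changed by 1.58 and 100% of 100 changed by 2.58 on the log2 scale, with 6 false calls, among 21727 genes. The changed genes were drawn from those with an average log2 CPM of 1 or more. Of the genes called at 24 h, 72 of 116 higher and 183 of 332 lower reached that level. Changes nearer to 2-fold were not simulated.

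The genes named were the 12 largest called increases and decreases with groups that did not overlap and a mean log2 CPM of 1 or more, the receptors, the 4 largest differences in each list, PDK4, ANGPTL4, ABCA1, ABCG1, SREBF1 and FABP4, and the 3 largest differences between the times in each direction. Of these, 2 genes are not reported here, though they count in the totals of their lists. Other genes were named after their values were seen. The comparison, the lists and the rule were chosen with earlier results of these data known. Promoter windows came from RefSeq (GRCh38.p14) and were matched by symbol with Python 3.11.15, pandas 2.3.3 and numpy 2.4.6, and plots were drawn with matplotlib 3.10.9.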

Additional observations from a re-analysis of the deposited data

Results flagged for a closer look

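In 5 gene and group pairs of 24 h, 1 library was far from the other 3, with a gap to its neighbour that passed Dixon's critical value as a share of the range of the group on the log2 scale. Chance flags about 1 in 20 groups. Every named gene was searched in the rosiglitazone and in the GW3965 group, so these 5 flags may be no more than chance gives. GW3965 replicate 1 was that library for E2F1 (gap 0.904 of the range, 109 CPM) and AQP1 (0.880, 16.6 CPM), and GW3965 replicate 4 for NR0B2 (0.919, 3.36 CPM). Among the rosiglitazone libraries it was replicate 2 for E2F1 (0.856, 172 CPM) and FABP4 (0.864, 0.486 CPM).

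The contrast of rosiglitazone with GW3965 differed between 48 and 24 h for 6635 of 23140 genes (28.7%), tested as an interaction. Among them were 47 of the named genes. INHBE, SLC6A9, G0S2, ATOH1, BTN3A3 and NR0B2 met the naming rule through this same difference, so their place was fixed in advance. Most others were named for the size of their 24 h difference, so the 47 are no sample of all genes. The values that follow are the 48 h minus the 24 h log2 difference, each with an adjusted p under 0.01. Rose and fell refer to the signed value and not to its size. A negative difference that fell became larger in size, as in FASN (-1.29 at 24 h and -2.61 at 48 h). One that rose could narrow, as in ABCG1 (-4.17 and -2.16). The difference rose between the times for these named genes, with INHBE at 5.51, SLC6A9 at 5.02, CHAC1 at 4.91, ADM2 at 4.27, DDIT4 at 4.23, TRIB3 at 3.29, ASNS at 3.21 and PCK2 at 2.33. It also rose for SEMA7A at 4.24, EREG at 3.84, CDKN1A at 2.41, FOS at 1.58, MYC at 1.40 and DUSP4 at 0.77. It rose for G0S2 at 5.09, ABCG1 at 2.02 and LPIN1 at 0.50.

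Among the receptors the change was 1.78 for PPARD, 1.02 for PPARG, 0.48 for NR1H2, -0.54 for PPARA and -3.37 for NR0B2. Differences fell between the times for FABP1 (-1.07), EHHADH (-0.72), ACSL1 (-0.50), FASN (-1.31), ACSS2 (-0.72) and SCD (-0.39), and for INSIG1 (-1.18), LSS (-0.95) and TM7SF2 (-0.82). They also fell for PFKFB4 (-1.86) and ENO2 (-0.96), for SLC38A4 (-0.76), CYP24A1 (-0.80), TLR4 (-1.25), AADAC (-0.93), NOTUM (-1.35), BATF2 (-3.32) and BTN3A3 (-3.42). The others that fell were ATOH1 (-3.39), LGR5 (-1.56), SLC4A4 (-1.03), AQP1 (-0.98), CFTR (-0.85), MUC13 (-0.64) and CEACAM1 (-0.35).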

How the results depend on the processing

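The 24 h comparison gave 116 higher and 332 lower genes. A 1.5-fold limit gave 317 and 704, and a test against 1.5-fold gave 86 and 219, both by construction. The other settings gave 105 to 126 higher and 292 to 379 lower genes, DESeq2 among them with 121 and 352 and library size scaling without TMM with 105 and 379. The fit with a replicate block gave 115 and 317. Same-numbered rosiglitazone and GW3965 libraries of 24 h had correlations of their deviations of -0.095, 0.047, 0.31 and -0.042. Unlike-numbered libraries ran from -0.39 to 0.38. These few values cannot tell whether the replicate numbers pair the libraries. Leaving out 1 library gave 97 to 124 higher and 293 to 356 lower genes. None of the 448 called genes changed sign in any of these settings, and leaving out 1 library kept 371 to 399 of them called. Of the 45 named genes that were called, 44 kept the call in every alternative that gave an adjusted p, and INHBE, at low counts, lost it in the test against 1.5-fold (adjusted p = 0.0152). All 45 were called the same way without GW3965 replicate 1, where the largest shift, apart from FABP4, was 0.202, in CDKN1C. PPARA and RXRA, at 0.0002 and 0.04, changed sign with library size scaling without TMM (-0.045 and -0.00027), and PPARA also without a filter (-0.00025) and with the replicate block (-0.00037). Leaving out 1 library moved PPARA between -0.033 and 0.038 and RXRA between -0.093 and 0.14. The counts at 48 h and of genes whose contrast differed between the times stayed within 1.5 times the main value in all alternatives, with 1036 to 1382 higher, 1674 to 2095 lower and 5855 to 7180 differing when 1 library was left out.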

Other observations

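Rosiglitazone was also set against T0901317 at 24 h, a contrast that shares its rosiglitazone libraries with the one above, so the values stand side by side and are no independent check. ABCA1 was -4.66 against T0901317 and -5.56 against GW3965, SCD -1.49 and -1.77, and CHAC1 -3.01 and -3.13. ANGPTL4 was 5.03 against T0901317 and 3.80 against GW3965, SLC38A4 5.94 and 3.93, and PDK4 2.33 and 1.11, all on the log2 scale. Some genes lower with rosiglitazone than with GW3965 had T0901317 levels at or below those of DMSO. The Wnt deacylase NOTUM stood at 1.70 ± 0.274 CPM with rosiglitazone, 7.99 ± 2.37 CPM with GW3965, 5.26 ± 1.32 CPM with T0901317 and 6.28 ± 1.13 CPM in DMSO. The nucleotidase ENTPD8 stood at 1.51 ± 0.388, 7.01 ± 0.901, 4.34 ± 0.938 and 5.22 ± 1.28 CPM, and the transcription factor ATOH8 at 0.643 ± 0.168, 3.50 ± 0.660, 1.61 ± 0.591 and 2.31 ± 0.208 CPM in the same order.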
